A study of Mus musculus with 4 samples.

Results

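The genes described here encode 10 surface molecules through which dendritic cells signal to T cells: the B7 family ligands Cd80, Cd86, Cd274, Pdcd1lg2 and Icosl, the TNF superfamily ligands Cd70, Tnfsf4 and Tnfsf9, the TNF receptor family member Cd40, and the immunoglobulin-domain protein Cd83. They were taken as a list by symbol, with every probe set that the platform annotation gives to one of them alone, which gave 16 of the 22626 probe sets and 10 of the 12393 genes on the array. All 16 were tested, as no filter on low values was applied. Langerhans cells, the dendritic cells of the epidermis, came from the ears of mice lacking exon 2 of Ahr, which encodes the aryl hydrocarbon receptor (2 arrays), and of wild-type C57BL/6 mice (2 arrays). No mouse was treated, and cells of both genotypes were kept for 16 hours in culture, as sheets in some labels and as a suspension in others. Viable cells bearing MHC class II were then sorted, to above 95% purity, from a low-density fraction that held 20 to 35% Langerhans cells. The labels used here give neither the age and number of mice per array nor the other strain details of the deficient line, and p-values measure the spread between these arrays alone.

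A naive T cell needs a costimulatory signal beside recognition of peptide on MHC. CD80 and CD86 give it through CD28 and are also bound by the inhibitory receptor CTLA-4, while PD-L1 (Cd274) and PD-L2 (Pdcd1lg2) bind the inhibitory receptor PD-1. The TNF superfamily ligands act on receptors that prolong T cell survival and expansion, and CD40 runs the other way, receiving a signal from the T cell that activates the dendritic cell. Langerhans cells are known to mature when removed from the epidermis and cultured, with more costimulatory molecules at their surface, so both genotypes were examined in that state.

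The PD-1 ligands are shown by their promoters because they lie side by side on chromosome 19, with RefSeq start sites 43481 bases apart, and the genotypes separated on one of them and not on the other (values further on). The windows are from RefSeq on GRCm38.p6, plus strand, from 250 bases before to 50 after the start site, at chr19:29367188-29367487 for Cd274 and chr19:29410669-29410968 for Pdcd1lg2. Capitals mark matches, on either strand, to 5 motifs: the AhR core GCGTG, the STAT motif GAS (TTCNNNGAA), the core of the interferon response element, the AP-1 motif TGANTCA and the NF-kB motif.
Cd274: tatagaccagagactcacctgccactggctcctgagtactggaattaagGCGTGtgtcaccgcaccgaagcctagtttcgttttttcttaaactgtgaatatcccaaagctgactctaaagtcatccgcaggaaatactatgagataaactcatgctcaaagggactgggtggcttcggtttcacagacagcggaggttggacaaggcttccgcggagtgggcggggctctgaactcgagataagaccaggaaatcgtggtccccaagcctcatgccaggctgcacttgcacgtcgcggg
Pdcd1lg2: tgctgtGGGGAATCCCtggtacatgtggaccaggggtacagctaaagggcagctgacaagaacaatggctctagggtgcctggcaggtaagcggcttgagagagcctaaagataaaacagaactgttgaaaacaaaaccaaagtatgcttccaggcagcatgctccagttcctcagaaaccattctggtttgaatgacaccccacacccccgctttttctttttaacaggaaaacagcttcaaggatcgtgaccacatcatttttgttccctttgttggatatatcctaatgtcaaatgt
The Cd274 window held 1 AhR core, starting 201 bases before the start site, and no match to the other 4 motifs. The Pdcd1lg2 window held 1 NF-kB match, starting 244 bases before its start site, and no other. Of the 32851 promoter windows of the same length, 32.4% hold an AhR core, 8.46% an NF-kB match, 8.30% a GAS, 7.81% an AP-1 match and 3.44% the interferon response core. Windows were found for 4 of the 10 members. The other two of these were Cd80, with 1 AP-1 match 42 bases before its start, and Icosl, with 1 NF-kB match 111 bases before. These are matches of letters, not measured sites.

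No member passed the test between genotypes. In limma, 0 of the 16 probe sets had an adjusted p under 0.05, against 0.0177% of all 22626 probe sets (4, all lower in AhR-deficient cells). At an unadjusted p under 0.05, 3 of the 16 were higher and 0 lower, against 3.36% higher and 2.64% lower of all probe sets. These 3 were the single probe sets of Cd274 and Cd83 and 1 of the 2 of Cd86. The same 3 were the ones whose arrays did not overlap, all higher in AhR-deficient cells. Over all probe sets 19.0% were higher and 16.2% lower without overlap, so 3 of 16 is a share near that background. All differences below are log2 values, AhR-deficient minus wild-type, with limma's standard error (SE) and 2 arrays per genotype. An exact permutation test of a single value could not go below 0.333 here.

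Cd274, the PD-1 ligand that dampens T cell responses, had the greatest difference of the 16 probe sets. Its log2 values were 9.80 and 8.99 in AhR-deficient cells, against 7.91 and 8.02 in wild-type cells. The genotypes did not overlap, and the AhR-deficient arrays lay further apart from each other than the wild-type arrays did. The difference was 1.43 (SE 0.29), a 2.69-fold higher signal, with a 95% interval of 0.64 to 2.22 and an adjusted p of 0.599 in limma. With the higher AhR-deficient array left out it was 1.02, and with the lower left out 1.84.

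Pdcd1lg2, the neighbouring gene for the other PD-1 ligand, showed no such separation. Its values of 5.30 and 5.12 in AhR-deficient cells overlapped those of 5.19 and 5.05 in wild-type cells. The difference was 0.09 (SE 0.11; interval -0.20 to 0.38). Whether the PD-1 ligands differ from each other in their response was not tested. Pdcd1lg2 was above the 25th percentile of every array, which lay between 4.54 and 4.57. The deposited values hold no detection calls.

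Cd83 encodes a surface protein of mature dendritic cells that is known to keep MHC class II and CD86 at the cell surface. Its values were 11.98 and 12.07 in AhR-deficient cells, against 11.40 and 11.44 in wild-type cells. Both AhR-deficient arrays were higher, and arrays of the same genotype lay 0.09 (AhR-deficient) and 0.04 (wild-type) apart. The difference was 0.61 (SE 0.08; 1.52-fold; interval 0.39 to 0.82), with an adjusted p of 0.402 in limma. Of the 16 probe sets it had the smallest p, 0.00128 before adjustment.

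Cd86, a ligand of CD28 and CTLA-4, was measured by 2 probe sets that differed. Probe set 1449858_at gave 9.65 and 9.52 in AhR-deficient cells, against 9.11 and 9.02 in wild-type cells. Here the genotypes did not overlap, and the difference was 0.52 (SE 0.09; interval 0.27 to 0.76; limma adjusted p = 0.533). Probe set 1420404_at gave 10.19 and 9.45 in AhR-deficient cells, against 9.78 and 9.43 in wild-type cells. These overlapped, with a difference of 0.22 (SE 0.29; interval -0.57 to 1.004). Without AhR-deficient replicate 1 the second value was -0.15. The annotation gives both probe sets the same accession, and their positions in the transcript were not used here.

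Cd80, the other CD28 and CTLA-4 ligand, had 4 probe sets, and on all of them the genotypes overlapped. The brightest, 1432826_a_at, gave 8.56 and 7.81 in AhR-deficient cells, against 7.93 and 7.004 in wild-type cells. In each genotype replicate 1 was the higher array, by 0.75 in AhR-deficient and 0.92 in wild-type cells, and both gaps exceeded the difference between genotypes of 0.72 (SE 0.41; interval -0.40 to 1.84; limma adjusted p = 0.884). Its size rests on which arrays are used: dropping replicate 1 or replicate 2 gave 0.34 or 1.09 for AhR-deficient cells and 1.18 or 0.26 for wild-type cells. Probe sets 1451950_a_at and 1427717_at differed by 0.23 (SE 0.18) and 0.30 (SE 0.26), again with replicate 1 above replicate 2 in both genotypes. The fourth, 1454372_at, was below the 25th percentile on all 4 arrays and differed by 0.04 (SE 0.10).

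**Figure D1:**
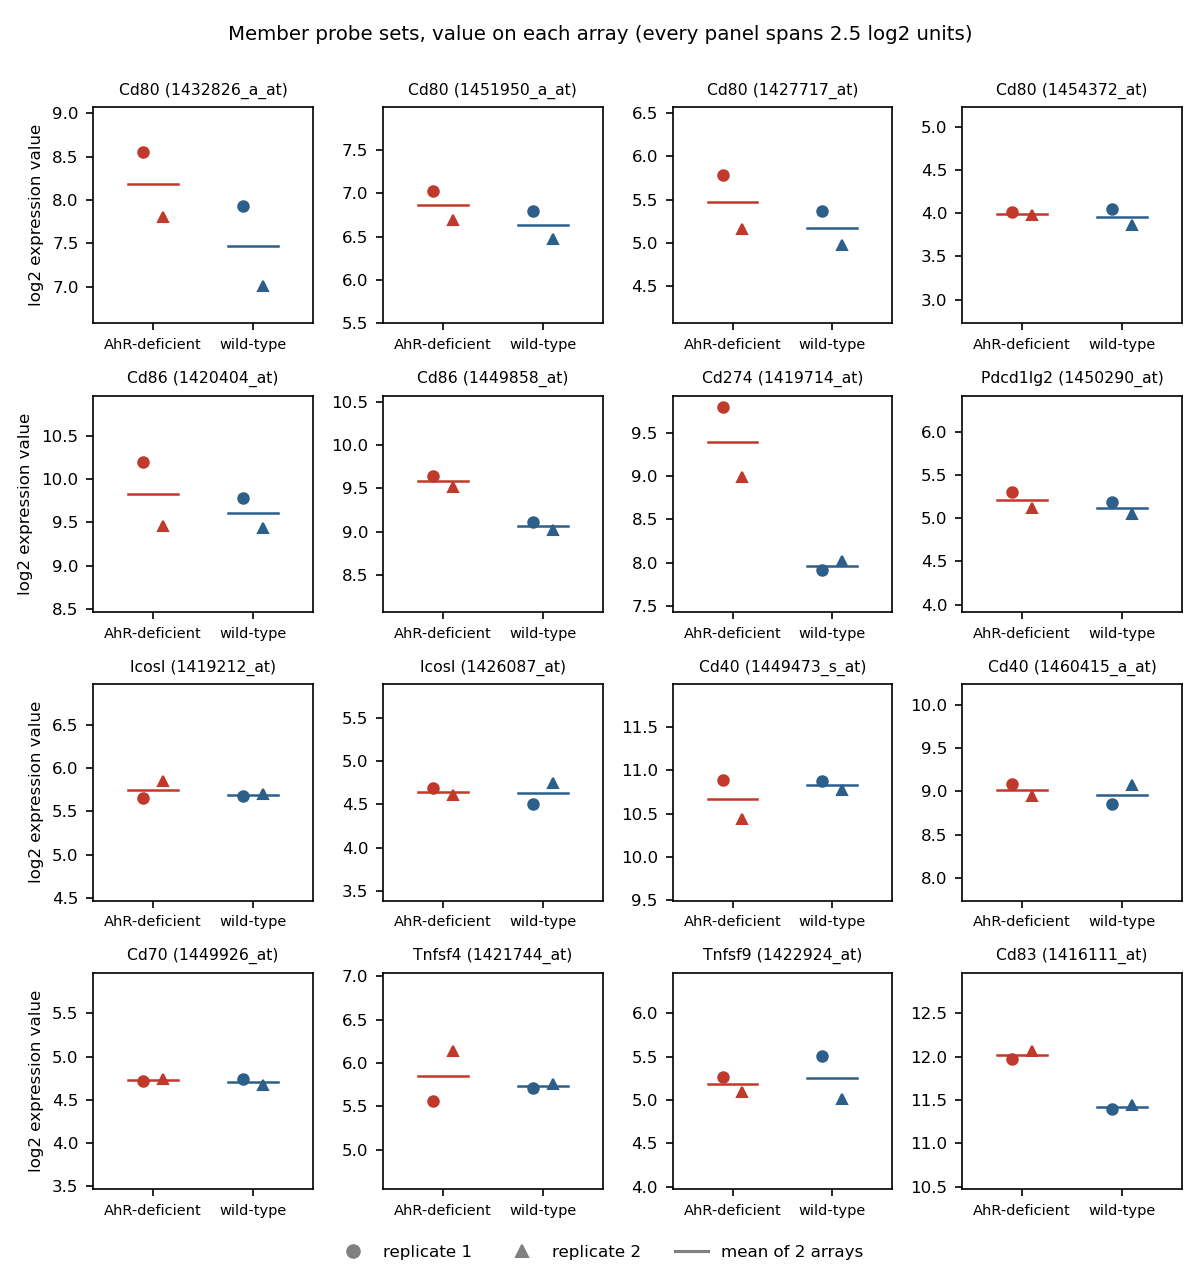
Log2 expression value of each member probe set on each array, AhR-deficient on the left (red) and wild-type on the right (blue) of every panel, circles for replicate 1, triangles for replicate 2 and lines for the mean of 2 arrays. Cd274, Cd83 and Cd86 probe set 1449858_at separate the genotypes, while the brightest Cd80 probe set spreads as far within each genotype as between them.

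Icosl, the ligand of the T cell costimulator ICOS, showed no separation. Probe set 1419212_at gave 5.65 and 5.85 in AhR-deficient cells, against 5.68 and 5.69 in wild-type cells. The wild-type arrays lay between the AhR-deficient ones, and the difference was 0.06 (SE 0.10; interval -0.21 to 0.34). Probe set 1426087_at, which fell below the 25th percentile on 1 array, differed by 0.02 (SE 0.11).

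Cd40, the receptor for the T cell signal CD40L, also overlapped on both of its probe sets. Probe set 1449473_s_at, a design that can pick up more than one transcript, gave 10.89 and 10.44 in AhR-deficient cells, against 10.88 and 10.77 in wild-type cells. Only AhR-deficient replicate 2 was lower than the rest, and the difference was -0.16 (SE 0.18; interval -0.64 to 0.31). Probe set 1460415_a_at gave 9.09 and 8.94 against 8.85 and 9.07, AhR-deficient cells first, a difference of 0.06 (SE 0.12; interval -0.26 to 0.37).

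The genotypes overlapped for each of the TNF superfamily ligands. Tnfsf4, the ligand of OX40, gave 5.56 and 6.14 in AhR-deficient cells, against 5.71 and 5.76 in wild-type cells, which lay between them (0.12, SE 0.21; interval -0.45 to 0.69). Tnfsf9, the ligand of 4-1BB, gave 5.27 and 5.09 in AhR-deficient cells, against 5.51 and 5.01 in wild-type cells. Here the AhR-deficient arrays lay between the wild-type ones (-0.07, SE 0.20; interval -0.60 to 0.46). Cd70, the ligand of CD27, gave 4.72 and 4.74 in AhR-deficient cells, against 4.74 and 4.68 in wild-type cells. All 4 values fell within 0.07 log2 units, just above the 25th percentile of the arrays, and the difference was 0.02 (SE 0.08; interval -0.19 to 0.23). A probe set near the background of the array can understate a change, and no detection call tells whether the transcript was present.

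**Figure D2:**
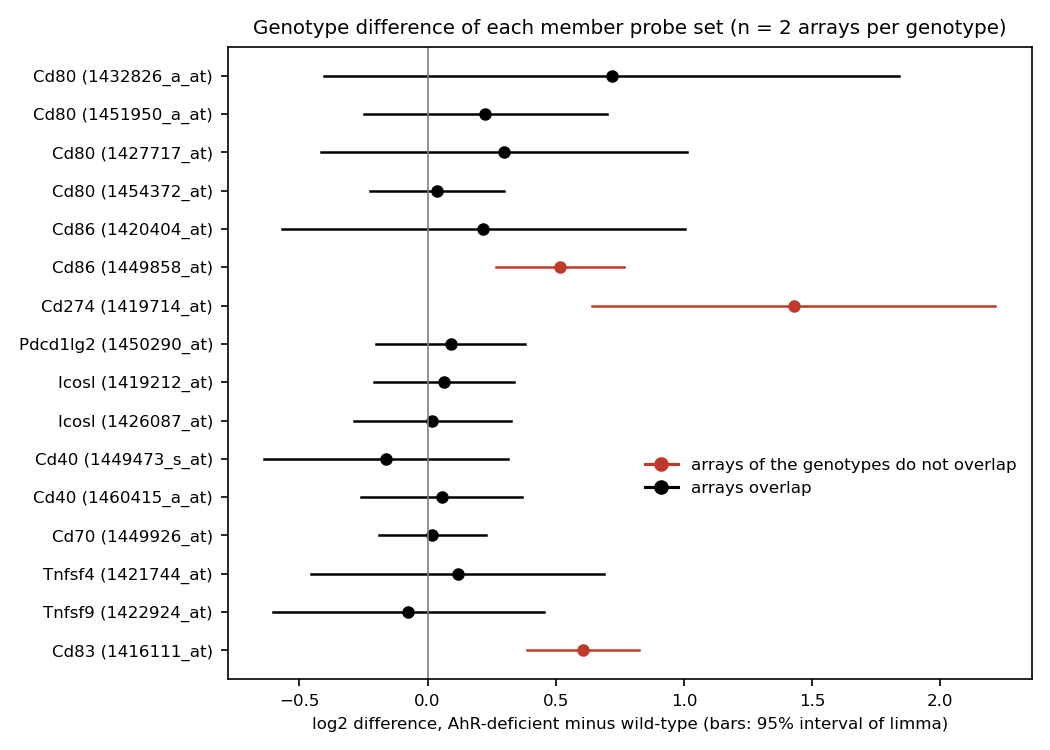
Log2 difference of each member probe set, AhR-deficient minus wild-type, with the 95% interval of limma and n = 2 arrays per genotype. The interval lies above 0 for Cd274, Cd83 and 1 Cd86 probe set (red, arrays not overlapping) and includes 0 for the other 13 (black).

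Taken by gene, with the probe set of highest mean for each, the members had a median difference of 0.10, against 0.01 over all 12393 genes. Of the 10, 8 had a positive difference, against 52.2% of all genes, and 2 were higher without overlap and 0 lower, against 18.8% higher and 16.6% lower of all genes. At an unadjusted p under 0.05 the same 2, Cd274 and Cd83, were higher and 0 lower, against 3.50% and 3.04% of all genes. The B7 family members had a median of 0.22, with 5 of 5 positive. The TNF family members had a median of -0.03, with 2 of 4 positive. The members were chosen with earlier results of these arrays known, so these are descriptions of the list and carry no test.

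Arrays of the same genotype were also compared with each other. The median gap between replicates was 0.20 in AhR-deficient and 0.16 in wild-type cells over the 16 probe sets, against 0.12 and 0.11 over all probe sets. For 13 of the 16, the wider of the gaps exceeded the difference between genotypes, which is also true of 76.7% of all probe sets. Replicate 1 was above replicate 2 for 12 of 16 in AhR-deficient and 10 of 16 in wild-type cells, where all probe sets give 52.6% and 51.9%. All 4 probe sets of Cd80 and both of Cd86 ran this way in each genotype. Cd274 ran this way in AhR-deficient cells alone, by 0.82, against -0.10 in wild-type cells, while Cd83 ran slightly the other way in each (-0.09 and -0.04, AhR-deficient first). Probe sets of one gene share its transcript, so these counts are not of independent members.

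**Figure D3:**
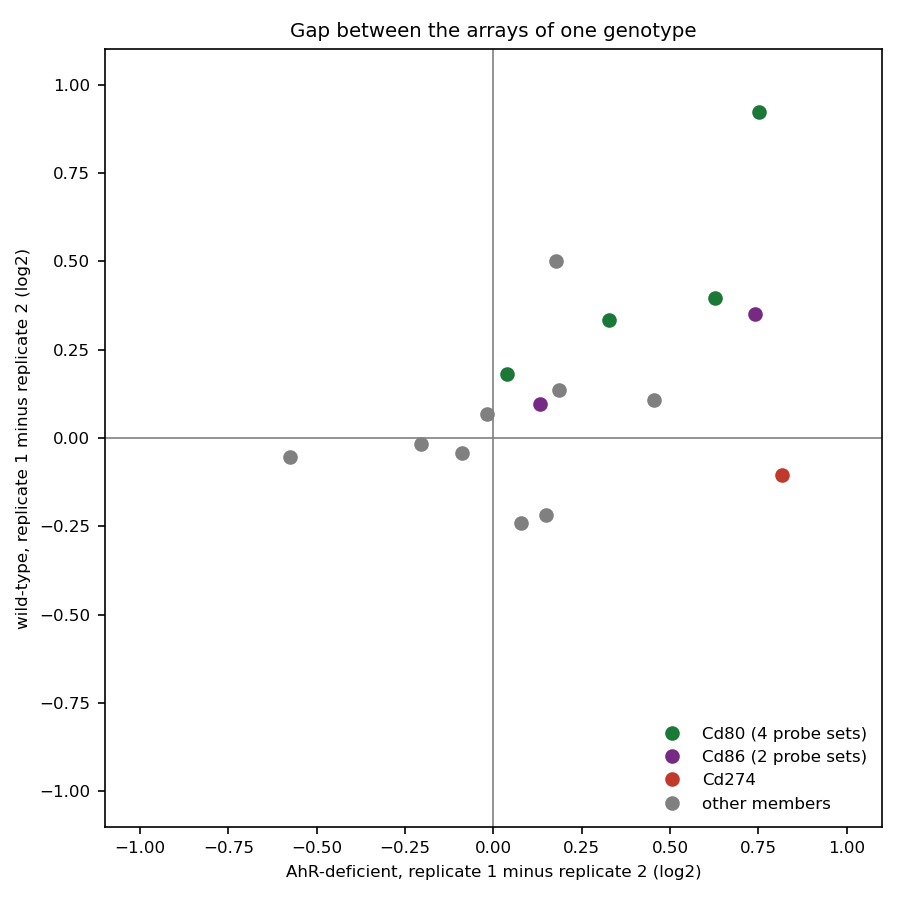
Log2 value of replicate 1 minus replicate 2 in AhR-deficient cells (horizontal) and wild-type cells (vertical), 1 point per member probe set. The 4 Cd80 and 2 Cd86 points lie in the upper right, where replicate 1 was higher in both genotypes, and the Cd274 point lies far to the right near a vertical value of -0.10.

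By Euclidean distance over the 4 arrays, each gene centred on its mean, the genes most like Cd274 among 12392 were Tcaf2 (distance 0.13 log2 units), Mndal (0.21) and the MHC class II gene H2-Eb1 (0.27). H2-Eb1 gave 11.31 and 10.78 in AhR-deficient cells, against 9.74 and 9.60 in wild-type cells. The genes most like Cd80 were Pla1a (0.19), Plek2 (0.24) and Calr (0.37). Pla1a, for example, gave 7.97 and 7.46 in AhR-deficient cells, against 7.44 and 6.43 in wild-type cells, with replicate 1 the higher in each. No other member ranged over 1 log2 unit, the least that was compared. With 4 arrays many genes can match a pattern by chance, and the distances only describe it.

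Genes around the members were read from 10 lists, of which 141 of 170 genes were measured. By limma 0 of these genes rose, and 1 fell, against 0.0323% of all genes that fell: Ahrr, the AhR repressor and a known AhR target. It gave 5.32 and 5.09 in AhR-deficient cells, against 8.26 and 8.38 in wild-type cells (-3.11, SE 0.11; adjusted p = 0.0403). This call was lost when any single array was left out (limma adjusted p from 0.198 to 0.469), when the replicate number was a block (adjusted p = 0.895) and when 16 was added on the linear scale (adjusted p = 0.0902). Ahr itself gave 8.55 and 8.60 in AhR-deficient cells, against 7.61 and 8.23 in wild-type cells (0.66, SE 0.23). Where its probe sets lie relative to the deleted exon was not determined, so this value does not check the genotype. The named values that follow did not pass, with adjusted p of 0.104 or more in limma.

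Among other ligands, 3 of 11 B7 and butyrophilin-like genes were measured, with a median of 0.05. Vsir, which encodes the inhibitory ligand VISTA, had 6.34 and 5.91 in AhR-deficient cells, against 6.51 and 6.62 in wild-type cells (-0.44, SE 0.17). Its other probe set differed by only -0.06 (SE 0.07). Cd276 overlapped (0.05, SE 0.09). Other TNF family genes had a median of -0.03 over 15, with 3 higher and 6 lower without overlap, against 18.8% and 16.6% of all genes. Tnfrsf1b, a TNF receptor, differed by 0.49 (SE 0.19), while its other probe set overlapped at -0.06 (SE 0.11). Tnfsf8, the CD30 ligand, differed by -0.20 (SE 0.09). Tnfsf14, known as LIGHT, differed by -0.03 (SE 0.11), and by 0.07 (SE 0.09) on its dimmer probe set.

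Adhesion and SLAM costimulators had a median of 0.04 over 23 genes, with 5 higher and 3 lower without overlap, near the 18.8% and 16.6% of all genes. Among the higher genes, Nectin2 differed by 0.53 (SE 0.16), and by 0.55 (SE 0.16) on its dimmer probe set. Slamf7 gave 6.56 and 6.23 in AhR-deficient cells, against 7.66 and 7.29 in wild-type cells (-1.08, SE 0.19). Cd24a differed by -0.43 (SE 0.09), and by -0.72 (SE 0.22) and -0.71 (SE 0.10) on its dimmer probe sets. Icam1, the ligand of LFA-1, differed by 0.05 (SE 0.21), a sign that turned to -0.0093 with a further quantile normalisation. Other inhibitory ligands had a median of 0.10 over 15, with 7 higher and 2 lower without overlap, beside the same shares of all genes. The 2 lower genes were Ido1, the tryptophan-degrading enzyme (-3.14, SE 0.17), and Lgals3, or galectin-3 (-0.79, SE 0.10). Lgals3 gave 11.54 and 11.70 in AhR-deficient cells, against 12.35 and 12.46 in wild-type cells.

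Genes of CD40 and TRAF signalling had a median of 0.12 over 20, with 8 higher and 1 lower without overlap, against 18.8% and 16.6% of all genes. Traf1, an adaptor of TNF receptors, gave 9.32 and 9.41 in AhR-deficient cells, against 8.96 and 9.04 in wild-type cells (0.37, SE 0.08). Rel, an NF-kB subunit, differed by 0.61 (SE 0.22), and Relb, another NF-kB subunit, by -0.0021 (SE 0.18). The interferon and JAK-STAT route had a median of 0.15 over 18, with 16 positive, 5 higher and 1 lower without overlap, beside the same shares of all genes. Jak2, a kinase of the interferon-gamma receptor, gave 11.30 and 10.87 in AhR-deficient cells, against 10.82 and 10.68 in wild-type cells (0.34, SE 0.17). Irf1, an interferon-induced factor, overlapped (0.15, SE 0.17), Stat2 differed by 0.26 (SE 0.11), and Irf8 ran lower (-0.51, SE 0.16).

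The list on surface turnover of B7 and MHC class II had a median of 0.24 over 10, with 6 higher and 0 lower without overlap, against 18.8% and 16.6% of all genes. The list mixes class II genes, such as H2-Aa, H2-Eb1 and Cd74, with genes of surface turnover itself, and its median and counts do not separate them. Its members with the smallest p were the class II genes H2-Aa and Cd74, the invariant chain. H2-Aa, whose probe set is of the _x_at kind that can pick up related sequences, gave 12.47 and 12.32 in AhR-deficient cells, against 11.25 and 10.92 in wild-type cells (1.31, SE 0.14). Cd74 gave 11.25 and 11.16 in AhR-deficient cells, against 10.15 and 10.39 in wild-type cells (0.93, SE 0.12). Since the cells were sorted on MHC class II, these are levels within the sorted gate. Other maturation genes had a median of 0.16 over 19, with 7 higher and 0 lower without overlap, beside the same shares of all genes. Il1b differed by 1.19 (SE 0.28), Il15 by 0.43 (SE 0.16), and Ccr7, the receptor for exit to lymph nodes, overlapped (-0.06, SE 0.10). T cell receptors for the members had a median of -0.02 over 11, with 1 higher and 1 lower without overlap, beside 18.8% and 16.6%. Tnfrsf18 differed by 0.16 (SE 0.10) and Tnfrsf9 by -0.15 (SE 0.13).

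**Figure D4:**
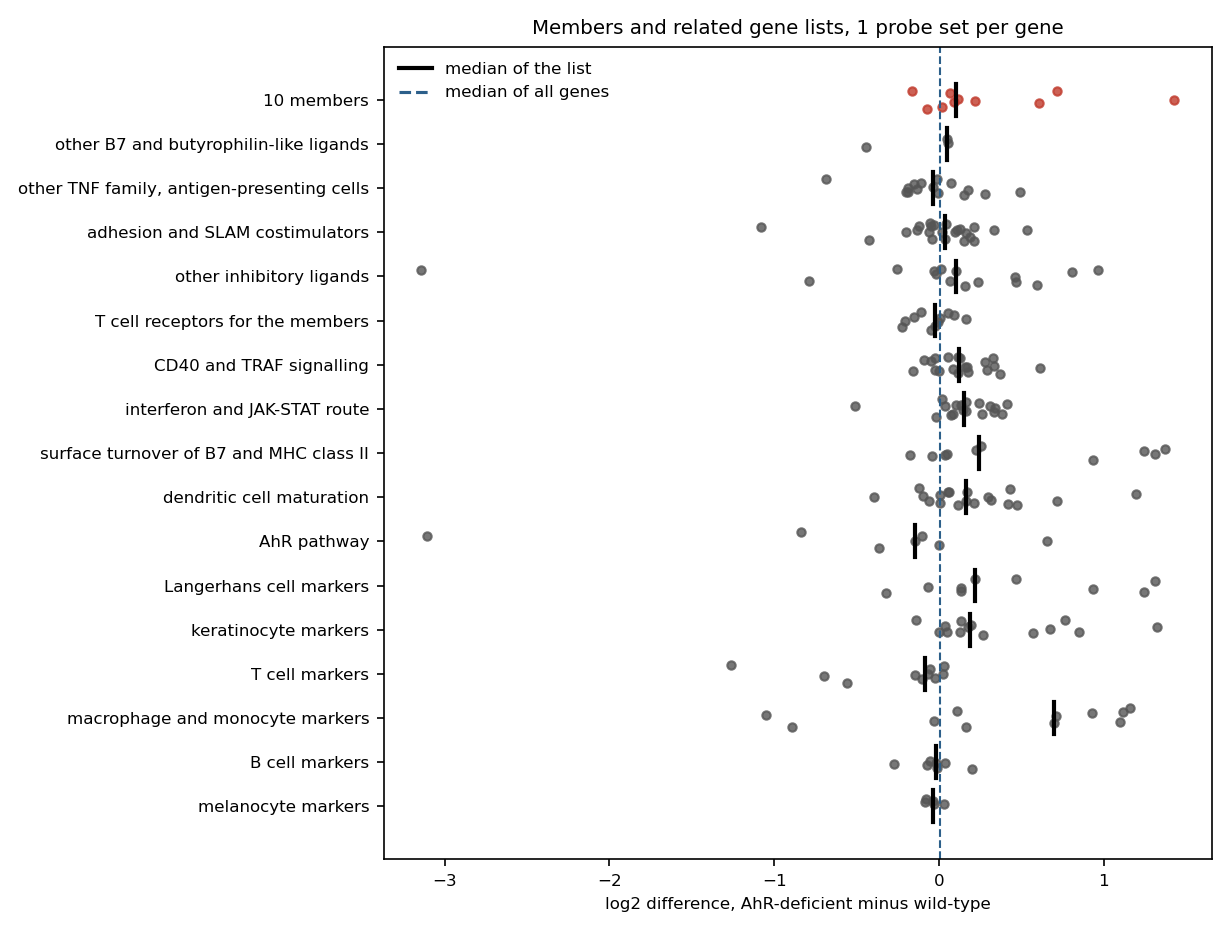
Log2 difference, AhR-deficient minus wild-type, of the 10 members (red) and of the genes of each related or marker list (grey), 1 probe set per gene, with the median of each list as a bar and that of all genes as a dashed line. Members run from -0.16 to 1.43 around a median of 0.10, and the single called gene, Ahrr, lies at -3.11 in the AhR pathway list.

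Marker lists of the sorted and of other cells were read beside these values, and in limma 0 of their genes passed the test. The summed linear signal of the 9 Langerhans cell markers was 16565 and 15231 in AhR-deficient cells, against 9965 and 12911 in wild-type cells. The genotypes did not overlap in this sum, which was highest on AhR-deficient replicate 1. The list had a median difference of 0.22, with 7 of 9 positive and 4 higher and 0 lower without overlap, against 18.8% and 16.6% of all genes. Of the 9 genes, 3 (H2-Aa, H2-Ab1 and Cd74) are MHC class II genes that the surface turnover list also holds. H2-Aa (1.31) and Cd74 (0.93) were bright and higher on both AhR-deficient arrays, and the separation of the sum rests largely on them. No sum without the class II genes was made, so it does not measure the share of Langerhans cells. The defining markers Cd207 and Epcam overlapped between genotypes and were bright: Cd207 gave 11.21 and 11.71 in AhR-deficient cells, against 10.9995 and 12.06 in wild-type cells, and Epcam 10.71 to 11.38 over all arrays.

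Keratinocyte markers summed to 752 and 521 in AhR-deficient cells, against 451 and 484 in wild-type cells (14 of 15 genes measured, 4 of them below the 25th percentile on every array). Their median difference was 0.19, with 8 higher and 1 lower without overlap, against 18.8% and 16.6% of all genes. The keratinocyte sum was highest on AhR-deficient replicate 1, as was the Langerhans cell sum with its class II genes included. That array held the highest value of 9 of the 16 member probe sets, among them Cd274 and both of Cd86. AhR-deficient replicate 2 held the highest of 3, namely Cd83, Tnfsf4 and 1 of Icosl, and the wild-type arrays held the highest of 3 and 1. Several of the 9 are probe sets of the same gene (Cd80, Cd86 or Cd40) and are not independent. The share over all probe sets was not counted, so these numbers say nothing particular about the members.

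Macrophage and monocyte markers had the highest median difference of the lists read here, 0.70 over 11 of 12 genes. Of these 8 were positive, 7 were higher and 2 lower without overlap, and an unadjusted p under 0.05 was reached by 4 that were higher and 1 that was lower, against 3.50% and 3.04% of all genes. Cd68 differed by 1.12 and Csf1r by -1.05. The sum, which the brightest genes dominate, ran otherwise, at 3080 and 2285 in AhR-deficient cells, against 2876 and 4263 in wild-type cells. T cell markers (10 of 14 measured) had a median of -0.09, with 0 higher and 3 lower without overlap, beside 18.8% and 16.6%. These markers gave the same counts at an unadjusted p under 0.05 in limma, beside 3.50% and 3.04% of all genes. Their sum was 466 and 504 in AhR-deficient cells, against 577 and 521 in wild-type cells. Cd3g gave 4.52 and 4.26 in AhR-deficient cells, against 5.80 and 5.50 in wild-type cells. Its AhR-deficient values lay below the 25th percentile of the arrays (4.54 to 4.57), near background, so the size of this difference is uncertain. B cell markers (7 of 8; median -0.02) summed to 579 and 619 in AhR-deficient cells, against 609 and 615 in wild-type cells. Melanocyte markers (5 of 6; median -0.04) summed to 314 and 332 in AhR-deficient cells, against 329 and 334 in wild-type cells.

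On the Actb control probe sets the 3' end exceeded the 5' end by 2.34 and 2.61 log2 units in AhR-deficient cells, against 3.16 and 2.65 in wild-type cells. The Actb excess was thus lower in AhR-deficient cells without overlap, though 2.61 and 2.65 lay close. On those of Gapdh the excess was 2.24 and 2.19 in AhR-deficient cells, against 2.60 and 1.97 in wild-type cells, where the genotypes overlapped. The part of other cells and of RNA quality in the members' values was not tested, and in a sorted bulk sample fewer cells of a type and less RNA per cell cannot be told apart.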

How the data were processed

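Each Affymetrix MOE430A array was deposited as log2 signals, 1 per probe set, made with affy and RMA (background correction, quantile normalisation, probe summary) per the submitters' processing notes. Versions, chip definition and genome build are not given in the sources used here. Array medians lay between 5.60 and 5.63, no 2 arrays were identical, and no further scaling was done. The number of arrays limits the precision. Of 22690 probe sets, 64 controls were left out. Symbols came from the platform annotation: 20380 probe sets had 1 symbol, 691 several and 1555 none, and 20351 matched RefSeq by Entrez identifier.

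The difference between genotypes was fitted in R 4.3.3 by limma 3.58.1 (lmFit, eBayes; total degrees of freedom 4.27), adjusted by Benjamini-Hochberg over 22626 probe sets and called at 0.05. The limma step alone was tested, on simulated arrays with known changes and independent noise. How often changes of the members' size were recovered is not reported here. Named genes were all members, the called genes or else the 2 with the smallest p of each list, and a fixed set. Sirpa, Fgl2 and Nectin2 were added because the genes so chosen from their lists ran lower. Outside the members, each was chosen and first read by its probe set of highest mean. Members and lists were chosen with earlier results of these data known. Replicate numbers were not treated as pairs, as the labels name no shared animal or day. Alternatives were a replicate block, trended or robust eBayes, array weights, no dim or _s_at and _x_at probe sets, quantile normalisation or median centring, adding 16, the mean of a gene's probe sets, and leaving out each array.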

Additional observations from a re-analysis of the deposited data

How the results depend on the processing

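No member probe set was called under any alternative listed for the test. The 142 values of members from alternatives that kept all 4 arrays kept their direction (smallest adjusted p 0.371 in limma). Of these alternatives, only quantile normalisation, median centring and adding 16 could change a direction. The others left the differences as they were. The 4 calls over all probe sets became 0 with a replicate block, 0 with 16 added on the linear scale, 0 without any single array, and 8 with an intensity trend. The lone array of a genotype is then assumed to vary like the others. Same-numbered arrays deviated with a correlation of -0.309 over all probe sets, which cannot show whether they share a day or batch. A crossed block, chosen after seeing the data, gave 0 calls over all probe sets and 0 among members. The replicate block ended Ahrr's call (adjusted p = 0.895), as did adding 16 (0.0902, -2.66) and leaving out an array (-3.22 to -2.998), while Ido1 gained a call with a trend (adjusted p = 0.0441, -3.14).

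Leaving out single arrays moved the members' median between 0.057 and 0.17. The number of member probe sets without overlap became 6 to 12, since 1 array separates from 2 more easily. The share over all probe sets was not counted in these settings, so that number says nothing about the members. Leaving out an array kept the direction of Cd274 (1.02 to 1.84), Cd83 (0.56 to 0.65), Cd86 1449858_at (0.45 to 0.58) and 2 Cd80 probe sets. Directions turned for Cd40 1449473_s_at (-0.39 to 0.065) and 1460415_a_at (-0.054 to 0.16), Cd70 (-0.015 to 0.052), Cd80 1427717_at (-0.014 to 0.61) and 1454372_at (-0.055 to 0.13), Cd86 1420404_at (-0.15 to 0.59), Icosl 1419212_at (-0.038 to 0.17) and 1426087_at (-0.10 to 0.14), Pdcd1lg2 (-0.0021 to 0.18), Tnfsf4 (-0.17 to 0.41) and Tnfsf9 (-0.32 to 0.18). Among other named genes it turned for Ccr7 (-0.15 to 0.025), Cd276 (-0.025 to 0.13), Icam1 (-0.23 to 0.32), Irf1 (-0.084 to 0.38), Relb (-0.23 to 0.23) and Tnfsf14 (-0.12 to 0.053). Icam1 also turned with quantile normalisation (-0.0093). The causes were not tested.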
